A study of Homo sapiens with 6 samples.

Results

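The nucleotide synthesis enzymes described here are the products of 9 genes: RRM1, RRM2, RRM2B, TYMS, TK1, DUT, DCK, CAD and UMPS. They were taken by gene symbol from a count table of 58735 genes as enzymes of ribonucleotide reduction, thymidylate and pyrimidine synthesis, and salvage. All 9 were found once in the table and all 9 passed the filter on low counts, together with 15242 genes in all. The libraries were 3 of parent MDA-MB-231 cells and 3 of ADRr cells, a resistant derivative of the same line. MDA-MB-231 is a human triple-negative breast cancer line, which lacks hormone receptors and HER2 amplification, and the labels give the genotype as WT for parent and ADR resistant for ADRr libraries. ADR is Adriamycin (doxorubicin), an anthracycline that poisons topoisomerase II. ADRr cells had been selected in stepwise rising ADR, and resistant clones had then been isolated by limiting dilution, so differences between the groups include those between a selected clone and an uncloned line. The drug concentration at harvest and the interval since the last exposure are not given in the sources used here. The series record mentions 3 time points that the sample labels do not carry. Nothing in the labels says that the 3 libraries of a group came from separate cultures, so the p-values measure the spread between these libraries, which may be technical.

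DNA replication needs balanced supplies of the deoxynucleotides dATP, dGTP, dCTP and dTTP, which cells make by reducing ribonucleotides or by recycling nucleosides. Ribonucleotide reductase carries out the reduction with a large subunit, RRM1, and a small subunit, which is RRM2 in cycling cells and RRM2B in resting cells or after DNA damage. TYMS, DUT and TK1 feed the dTTP supply, DCK recycles deoxycytidine and other deoxynucleosides, and CAD and UMPS build the pyrimidine ring from simple precursors. Several of these genes are textbook targets of the E2F factors, which switch on S phase genes. RRM2 and TK1 proteins are also degraded in the course of the cycle, a step that RNA does not show.

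Levels of 7 of the 9 genes were lower in ADRr than in parent cells, and none was higher. DUT was at 36.3% of its parent level, TYMS at 46.6%, RRM2 at 48.8%, RRM1 at 55.5%, DCK at 57.8%, TK1 at 76.4% and RRM2B at 76.6%. The enzymes of the pyrimidine ring, CAD at 104% and UMPS at 95.8%, did not pass the test. Calls needed a Benjamini-Hochberg adjusted p no greater than 0.05 in edgeR's quasi-likelihood test, and levels that differed 1.2-fold or more. Among all 15242 genes tested, 29.6% were called lower and 29.2% higher, against 7 and 0 of the 9 enzymes. No enzyme was higher at an unadjusted p under 0.05 in edgeR, DESeq2 or limma-trend, and each of the 3 tools called the same number, 7, lower. Together the 9 genes held 0.117 to 0.118% of all counts in parent libraries and 0.0784 to 0.0812% in ADRr libraries. In RNA from whole cultures, fewer cells that express a gene (for example fewer cells in S phase) and less RNA per cell cannot be told apart.

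The proximal promoters of 5 of the genes are shown as examples, since S phase genes are known to carry recurring promoter words. Of these, RRM2, TYMS, DUT and DCK were called lower, and CAD, which was not called, stands beside them for comparison. RefSeq promoter windows (GRCh38.p14, 250 bases before to 50 after a transcription start) were matched by symbol for 8 of the 9 genes, with 13 windows in all, since RRM2 and TK1 had 2 and DUT had 4. RRM2B was not matched. Each sequence runs 5′ to 3′ on the strand of the gene, up to base 30 after the start. Capitals mark matches, on either strand, to the E2F words TTTGGCGC, TTTCCCGC, TTTCGCGC and TTTGCCGC, the NF-Y word CCAAT and the MYC E-box CACGTG. No window with an E2F word was left out of those printed. RRM1 and TK1 were called lower too but are not printed, and their windows held no E2F word.
RRM2 (chr2:10122489-10122768, plus strand): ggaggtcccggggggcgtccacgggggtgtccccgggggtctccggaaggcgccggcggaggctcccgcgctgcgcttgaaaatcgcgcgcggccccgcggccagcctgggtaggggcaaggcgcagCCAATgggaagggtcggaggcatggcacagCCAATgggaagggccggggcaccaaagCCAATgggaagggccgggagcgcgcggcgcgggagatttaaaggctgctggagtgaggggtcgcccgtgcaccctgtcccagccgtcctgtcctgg
TYMS (chr18:657403-657682, plus strand): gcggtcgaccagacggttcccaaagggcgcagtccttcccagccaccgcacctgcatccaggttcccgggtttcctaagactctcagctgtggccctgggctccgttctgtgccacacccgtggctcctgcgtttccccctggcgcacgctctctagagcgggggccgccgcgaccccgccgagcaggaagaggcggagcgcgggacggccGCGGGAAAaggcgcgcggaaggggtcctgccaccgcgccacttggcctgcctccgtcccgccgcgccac
DUT, the most downstream of 4 starts (chr15:48331947-48332226, plus strand): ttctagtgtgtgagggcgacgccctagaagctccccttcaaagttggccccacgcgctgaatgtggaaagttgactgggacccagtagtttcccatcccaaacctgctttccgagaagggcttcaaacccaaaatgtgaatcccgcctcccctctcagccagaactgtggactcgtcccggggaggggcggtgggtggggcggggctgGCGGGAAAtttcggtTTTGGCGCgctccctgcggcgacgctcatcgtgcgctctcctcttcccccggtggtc
DCK (chr4:70993399-70993678, plus strand): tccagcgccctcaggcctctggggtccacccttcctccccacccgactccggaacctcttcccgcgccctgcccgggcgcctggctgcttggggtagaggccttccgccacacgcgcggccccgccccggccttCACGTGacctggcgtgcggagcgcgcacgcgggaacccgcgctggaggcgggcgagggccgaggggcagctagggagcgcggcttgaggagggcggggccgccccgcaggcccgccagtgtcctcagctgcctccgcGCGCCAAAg
CAD (chr2:27217119-27217398, plus strand): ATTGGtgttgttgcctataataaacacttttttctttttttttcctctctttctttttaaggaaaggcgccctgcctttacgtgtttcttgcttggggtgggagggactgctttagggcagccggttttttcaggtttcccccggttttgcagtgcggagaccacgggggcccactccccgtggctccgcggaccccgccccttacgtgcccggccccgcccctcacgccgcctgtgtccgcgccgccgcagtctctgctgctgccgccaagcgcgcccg

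An E2F word was present in 3 of the 13 windows, those of TYMS (first base 39 bases before the start), DCK (at base 22 after it) and the most downstream start of DUT, which held a pair of matches at 42 and 27 bases before the start. The same words were present in 3.31% of all 35116 promoter windows and in 4.81% of the 15184 windows of tested genes. RRM2 held 3 CCAAT words at 123, 93 and 66 bases before its start, and a CCAAT word was present in 5 of the 13 windows, of RRM1, RRM2, TK1 and CAD, against 34.3% of windows of tested genes. In CAD that word lay at the far edge, 250 bases before the start. CACGTG was present in the DCK window only, 116 bases before the start, against 9.33% of windows of tested genes. Of words not capitalised above, the SP1 word GGGCGG was present in 9 of the 13 windows (65.7% of windows of tested genes), and the cell cycle homology words TTTGAA and TTCGAA in 3 (11.7%), of DUT, RRM1 and UMPS. The windows of RRM2 and TK1 overlap in part, as do some of those of DUT. Some SP1 words of TK1 and DUT were therefore counted more than once. A match is a description of letters and does not show that a factor binds there, and a window without a match says nothing about the factor. Of 12 transcription regulators listed for comparison, 3 (25%) were called higher and 6 (50%) lower, against 29.2% and 29.6% of all tested genes. Those named here were chosen after their values were seen. E2F1, an activating member of the E2F family, was lower in ADRr cells, with 148 ± 4.12 normalized CPM (counts scaled to the library total, comparable between libraries but not corrected for gene length) in parent and 63.6 ± 1.46 in ADRr libraries (SD, n = 3 each), a log2 fold change of -1.22 (edgeR adjusted p = 1.7e-14). E2F2 (-3.67) and E2F8 (-1.93) were also lower, E2F7 was higher at 1.79 (edgeR adjusted p = 8.0e-18), and E2F3 (-0.01) and E2F4 (0.02) were not called. MYC, which binds CACGTG, was higher, from 223 ± 11.8 to 432 ± 7.34 CPM, with a log2 fold change of 0.95 (adjusted p = 1.6e-13).

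Ribonucleotide reductase was lower in all 3 of its subunits. RRM1 (ENSG00000167325), the large subunit that holds the active and regulatory sites, had 261, 270.1 and 246 normalized CPM in the parent libraries and 143, 139 and 149 in the ADRr libraries. The groups were far apart, and the lowest parent library stood well above the highest ADRr library. The log2 fold change was -0.85 with a standard error (SE) of 0.054, that is 55.5% of the parent level (95% interval 51.4 to 60.0%, edgeR adjusted p = 3.4e-12). RRM2 (ENSG00000171848), the small subunit that carries the tyrosyl radical and limits the enzyme in S phase, had 116, 121 and 100.3 CPM in parent and 52.95, 55.5 and 56.3 in ADRr libraries. Again no ADRr library reached the level of any parent library, and the spread was wider among the parent libraries. Its log2 fold change was -1.04 (SE 0.070), or 48.8% of parent (44.1 to 53.9%, adjusted p = 1.0e-11).

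RRM2B (ENSG00000048392), the alternative small subunit which supplies deoxynucleotides outside S phase, had 43.0, 49.1 and 43.0 CPM in parent and 37.0, 33.6 and 32.8 in ADRr libraries. The groups did not overlap, but the gap between the lowest parent and the highest ADRr library was small beside that of RRM1 or RRM2. The log2 fold change was -0.38 (SE 0.080), or 76.6% of parent (68.3 to 86.0%, adjusted p = 0.00022), and the interval included changes smaller than 1.2-fold.

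Because both small subunits compete for RRM1, their levels were also compared within each library as FPKM, a scale that corrects for library total and gene length. RRM2B stood at 0.354, 0.388 and 0.411 of the RRM2 level in the parent libraries and at 0.671, 0.581 and 0.560 in the ADRr libraries. Every ADRr ratio was above every parent ratio. On this scale RRM2B made up 27.8% ± 1.5 of the small subunit RNA in parent and 37.6% ± 2.25 in ADRr libraries (SD, n = 3 each). RRM2 thus remained the more abundant in all 6. RRM2 shares 20.2% of its exon bases with another gene, and the effect of such sharing on comparisons between genes was not tested. The log2 ratio differed by 0.65, with an exact two-sided permutation p of 0.1, which is the smallest that 3 against 3 libraries allow, and an adjusted p of 0.14 over the 7 ratios compared. RRM2 relative to RRM1 was 0.350, 0.352 and 0.320 in parent and 0.291, 0.312 and 0.296 in ADRr libraries, a log2 difference of -0.18 (exact permutation p = 0.1, adjusted 0.14). Here too the groups were apart, but by less than the range of the parent libraries.

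**Figure D1:**
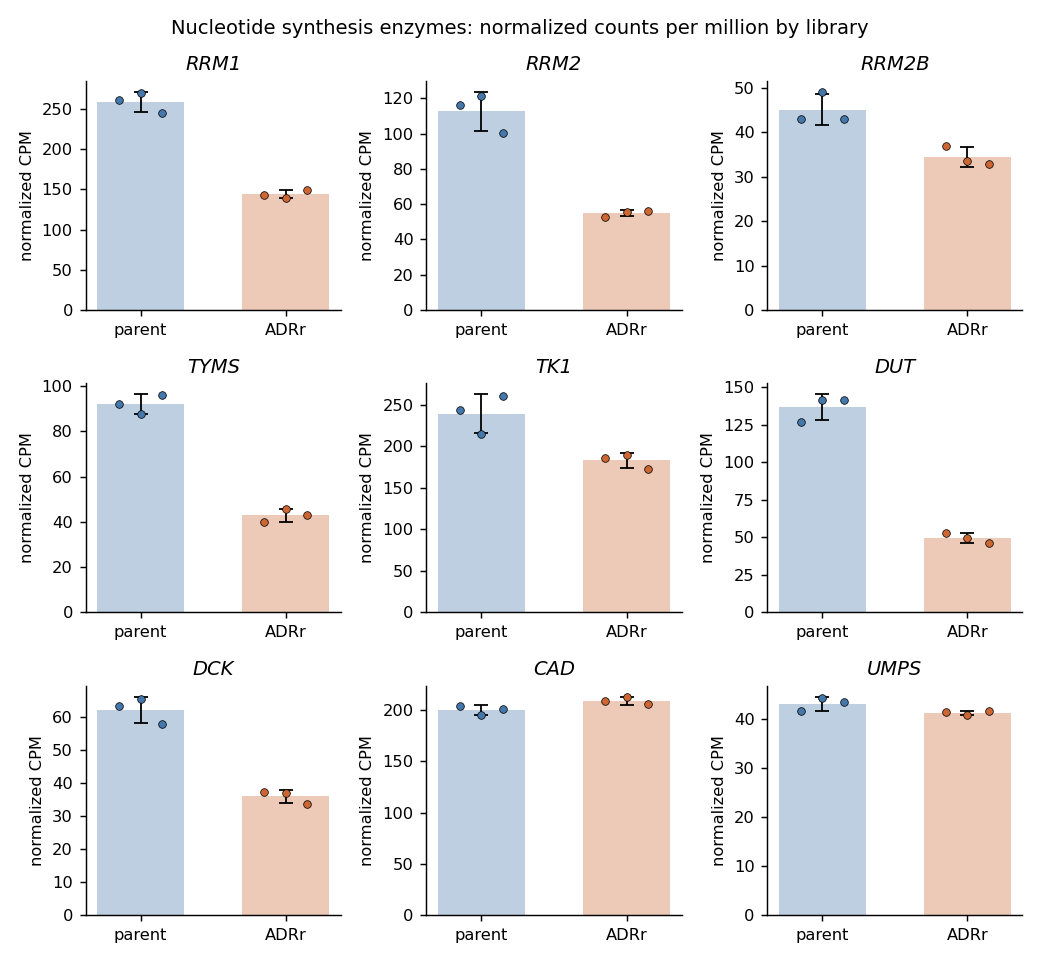
Normalized CPM (counts scaled to the library total, vertical axis, from 0) of each of the 9 genes in the 3 parent and 3 ADRr libraries (points), with the group mean (bar) and SD (error bar). In 7 panels every ADRr point lies below every parent point, in the CAD panel every ADRr point lies above, and in the UMPS panel the groups overlap.

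The genes that supply dTTP were lower, and the extent differed between them. DUT (ENSG00000128951), the dUTPase that keeps uracil out of DNA and makes the dUMP used by thymidylate synthase, had 127, 141 and 142 CPM in parent and 52.7, 49.9 and 46.2 in ADRr libraries. It was the most reduced of the 9 genes, and its groups were the furthest apart in proportion. This was a log2 fold change of -1.46 (SE 0.066), or 36.3% of parent (33.0 to 39.9%, edgeR adjusted p = 9.9e-15), and 4.09% of tested genes had a lower fold change. TYMS (ENSG00000176890), thymidylate synthase, which methylates dUMP to dTMP and is the target of fluorouracil, had 92.3, 87.8 and 96.3 CPM in parent and 40.2, 45.8 and 42.9 in ADRr libraries. All 3 ADRr libraries were near the middle of the distance between 0 and the parent libraries. Expressed as a log2 fold change, TYMS was at -1.10 (SE 0.068), or 46.6% of parent (42.2 to 51.3%, adjusted p = 2.1e-12).

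TK1 (ENSG00000167900), the cytosolic thymidine kinase that salvages thymidine in S phase, had 244, 215 and 260.1 CPM in parent and 186, 189.7 and 173 in ADRr libraries. The groups did not overlap, although the parent libraries alone spanned more than the gap between the groups. TK1 had a log2 fold change of -0.39 (SE 0.062), or 76.4% of parent (69.8 to 83.6%, edgeR adjusted p = 9.6e-06), and this interval too included changes just under 1.2-fold. TYMS relative to TK1, the de novo against the salvage source of dTMP, was 0.285, 0.308 and 0.279 by FPKM in parent and 0.162, 0.182 and 0.187 in ADRr libraries. The ADRr ratios were all below the parent ratios, with a log2 difference of -0.72 (exact permutation p = 0.1, adjusted 0.14). TK2, the mitochondrial thymidine kinase, had a log2 fold change of -0.19 (edgeR adjusted p = 0.093) and was not called. The ratio of TK2 to TK1 was 0.0237 ± 0.00205 in parent and 0.0272 ± 0.00263 in ADRr libraries (SD, n = 3 each), and these groups overlapped (exact permutation p = 0.2, adjusted 0.2).

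Of 15 other genes listed for the folate and thymidylate cycle, 5 were called higher and 8 lower, and SHMT1 and DTYMK were among the latter. SHMT1, the cytosolic serine hydroxymethyltransferase that loads the folate, had 43.2, 47.7 and 44.4 CPM in parent and 27.5, 28.5 and 26.7 in ADRr libraries, a log2 fold change of -0.71 (edgeR adjusted p = 3.4e-08). DTYMK, which phosphorylates dTMP onward, had 90.7, 89.9 and 108 CPM in parent and 62.6, 71.1 and 57.2 in ADRr libraries, a log2 fold change of -0.60 (adjusted p = 6.6e-07). Neither gene overlapped between the groups.

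DCK (ENSG00000156136), deoxycytidine kinase, which also activates the drugs cytarabine and gemcitabine, had 63.3, 65.6 and 57.9 CPM in parent and 37.2, 36.9 and 33.8 in ADRr libraries. The groups were separate, with similar relative spread in each. DCK was at a log2 fold change of -0.79 (SE 0.074), or 57.8% of parent (52.0 to 64.3%, edgeR adjusted p = 2.7e-09). DGUOK, the mitochondrial deoxyguanosine kinase, moved the other way, with 27.5, 30.6 and 29.2 CPM in parent and 40.6, 40.8 and 41.6 in ADRr libraries. Its log2 fold change was 0.49 (adjusted p = 6.8e-06), and the 50 tested genes nearest to it on chromosome 2 had a median of 0.52, with 29 called higher and 3 lower. The level of DGUOK relative to DCK by FPKM was 0.964, 1.03 and 1.12 in parent and 2.42, 2.45 and 2.73 in ADRr libraries. The kinases were thus near equal in parent cells, and DGUOK was the more abundant in every ADRr library, with a share of 71.6% ± 1.32 against 50.9% ± 1.88 in parent (SD, n = 3 each). This log2 difference, 1.29, was the widest of the 7 ratios (exact permutation p = 0.1, adjusted 0.14). A further 3 genes that act on the same pools were called lower, each by a smaller estimate than DCK: DCTD, dCMP deaminase, at a log2 fold change of -0.30, CDA, cytidine deaminase, at -0.28, and SAMHD1, which hydrolyses deoxynucleotide triphosphates, at -0.34. SLC29A1, the equilibrative transporter that carries nucleosides and their drug analogues, had 217, 204 and 217 CPM in parent and 149.9, 157 and 151 in ADRr libraries, a log2 fold change of -0.48 (adjusted p = 3.3e-08) beside a median of -0.45 for its 50 nearest tested genes.

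**Figure D2:**
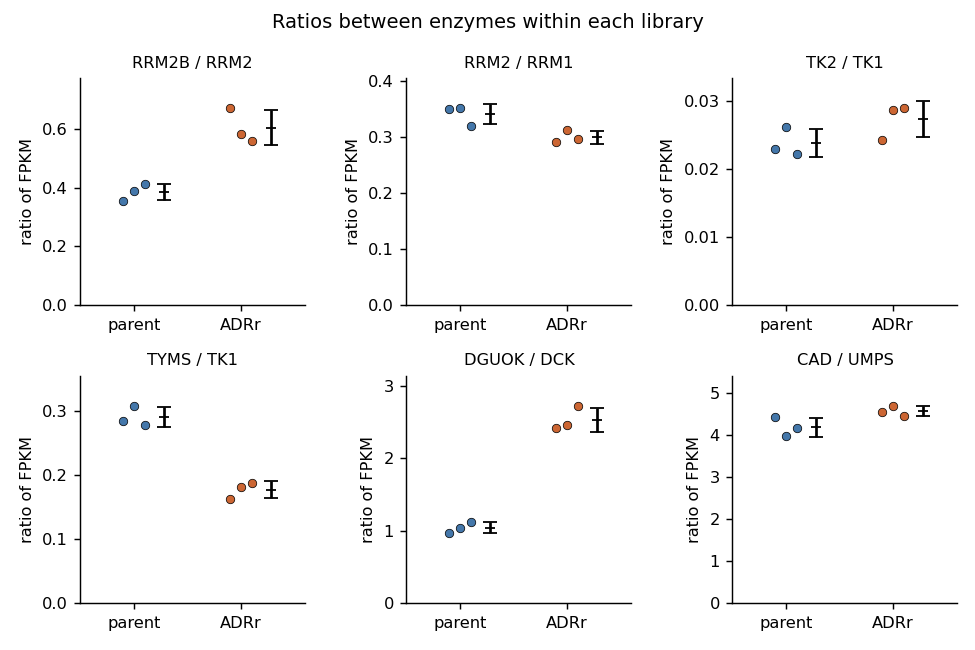
Ratio of FPKM of 2 genes within each library (vertical axes, from 0) for 6 of the pairs compared, in 3 parent and 3 ADRr libraries (points), with the mean and SD beside them. The DGUOK to DCK panel shows the widest separation, from 0.964 to 1.12 in parent and from 2.42 to 2.73 in ADRr libraries, and the groups overlap in the TK2 to TK1 panel.

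The genes of pyrimidine ring synthesis did not follow the others. CAD (ENSG00000084774), the protein that joins carbamoyl phosphate synthetase, aspartate transcarbamylase and dihydroorotase, had 204, 195 and 201 CPM in parent and 209, 213 and 206 in ADRr libraries. All 3 ADRr libraries were above all 3 parent libraries, by a margin that was small beside the range of the parent libraries, and 34.5% of all tested genes had ADRr libraries above parent without overlap. The log2 fold change was 0.06 (SE 0.050), or 104% of parent (97.3 to 112%, edgeR adjusted p = 0.27). UMPS (ENSG00000114491), which completes UMP, had 41.5, 44.2 and 43.3 CPM in parent and 41.3, 40.8 and 41.5 in ADRr libraries. Those groups overlapped, with a log2 fold change of -0.06 (SE 0.071), or 95.8% of parent (86.5 to 106%, adjusted p = 0.46). For both genes the interval excludes a change as large as the estimate for any of the 7 genes called lower, RRM2B and TK1 included. The ends of the UMPS and RRM2B intervals were close, at 86.5% and 86.0% of parent, and the 2 genes were not tested against each other.

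CAD relative to UMPS by FPKM was 4.42, 3.97 and 4.18 in parent and 4.55, 4.70 and 4.46 in ADRr libraries, apart by a narrow margin (log2 difference 0.13, exact permutation p = 0.1, adjusted 0.14). DHODH, the mitochondrial enzyme between CAD and UMPS, had a log2 fold change of 0.19 (edgeR adjusted p = 0.12) and was not called. The enzymes that turn UTP into CTP, downstream of UMPS, were lower. CTPS1 had 115, 121 and 114 CPM in parent and 58.5, 57.3 and 56.9 in ADRr libraries, a log2 fold change of -1.02 (adjusted p = 6.9e-13), and its paralogue CTPS2 was at -1.04 (adjusted p = 1.2e-08). No library of either gene overlapped between the groups.

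Without overlap between groups, 7 of the 9 enzymes were lower and 1 was higher in ADRr libraries, where 34.7% of all tested genes were lower and 34.5% higher in this sense. On the length-corrected scale, TK1 had the most RNA of the 9 genes in both groups, with 126 ± 12.1 FPKM in parent and 96.6 ± 4.48 in ADRr libraries (SD, n = 3 each), followed by RRM1 with 60.7 ± 2.98 and 33.8 ± 1.25. Next in parent cells stood TYMS (36.5) and DUT (36.4 mean FPKM), whose libraries overlapped, then CAD (23.3), then RRM2 (20.7) and DCK (18.9), which overlapped as well. In ADRr cells CAD (24.4) had moved ahead of TYMS (17.1) and DUT (13.3), and DCK (10.95) and RRM2 (10.1) overlapped again. RRM2B (7.95 in parent, 6.10 in ADRr) and UMPS (5.55 and 5.34) were last in both. Both UMPS and RRM2B nevertheless had more RNA per length than most tested genes, 54.5% of which were below UMPS and 63.6% below RRM2B in parent cells.

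Genes of DNA replication and mitosis were lower as well. Of 23 S phase genes, 22 were called lower and 0 higher, against 29.6% and 29.2% of all tested genes. Their median log2 fold change was -1.31, and their summed level was 3351 to 3472 CPM in parent and 1295 to 1308 CPM in ADRr libraries. Of 15 G2/M genes, 14 were called lower and 0 higher, with a median of -1.03, and their sum was 4172 to 4506 CPM in parent and 1949 to 2032 CPM in ADRr libraries. CCNE1, with 0.12, and BUB1, with -0.12, were the genes of these lists that were not called, and were named after their values were seen. DUT was the only enzyme with a log2 fold change below the S phase median, with 8 of the 23 S phase genes lower still. TYMS had 17 S phase genes below it, RRM2 18, RRM1 19, and DCK, TK1 and RRM2B 21 each. The part of cell cycle distribution in the levels of the enzymes was not tested.

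**Figure D3:**
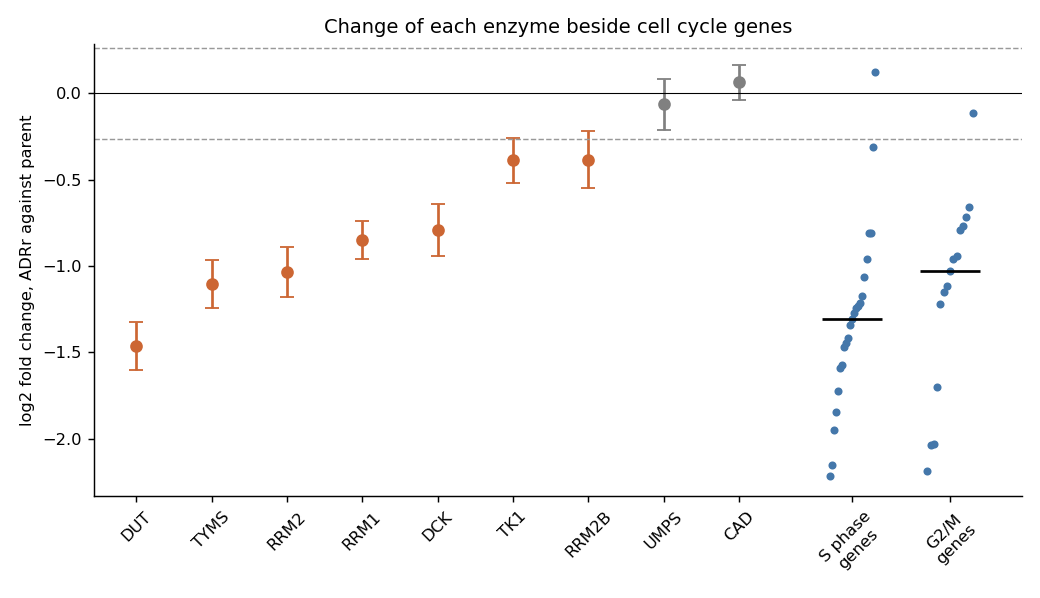
Log2 fold change, ADRr against parent (vertical axis), of the 9 enzymes with 95% intervals (orange where called lower, grey where not called), beside single S phase and G2/M genes (blue points) with their medians (black bars). Dashed lines mark the 1.2-fold threshold. DUT lies below the S phase median of -1.31, the other enzymes lie above it, and UMPS and CAD lie between the dashed lines.

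Beyond the 9 enzymes, 78 of 80 genes of nucleotide metabolism in 6 lists could be tested. Of these, 25 (32.1%) were called higher and 31 (39.7%) lower, with a median log2 fold change of -0.16, against 29.2% higher, 29.6% lower and a median of -0.01 over all 15242 genes. The summed level of these genes was 5807 to 5928 CPM in parent and 5897 to 5917 CPM in ADRr libraries, so these ranges overlapped, while the summed level of the 9 enzymes fell from 1189 to 1192 CPM in parent to between 781 and 804 CPM in ADRr libraries. Of the 15 folate and thymidylate genes 5 were higher and 8 lower (median -0.41). The largest called increase was that of MTHFD2. This gene, which encodes a mitochondrial methylenetetrahydrofolate dehydrogenase, had 52.5, 54.1 and 47.4 CPM in parent and 117, 119 and 118 in ADRr libraries (log2 fold change 1.2, edgeR adjusted p = 1.3e-13, beside a median of 0.50 for its 50 nearest genes), and FOLR1, a folate receptor, had the largest decrease at -1.84. SHMT2, the mitochondrial counterpart of SHMT1 and named after its values were seen, was at 1.05, from 158 ± 4.52 to 328 ± 2.12 CPM (SD, n = 3 each), while cytosolic SHMT1 was at -0.71.

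Of 9 tested pyrimidine nucleotide genes, 1 was called higher, NME1, a nucleoside diphosphate kinase, at 0.51, and 4 were lower (median -0.19). NME1 and NME2 are adjacent and share read-through transcripts, so reads could have been divided between them. Nucleoside salvage had 5 of 14 (35.7%) higher and 3 (21.4%) lower (median 0.12), against 29.2% and 29.6% of all tested genes. TYMP, thymidine phosphorylase, which splits thymidine and other deoxynucleosides, rose from 8.95, 8.21 and 10.4 CPM in parent to 34.2, 36.1 and 31.9 CPM in ADRr libraries, at a log2 fold change of 1.89 (edgeR adjusted p = 3.0e-13). UPP1, uridine phosphorylase, named after its values were seen, had 140.2, 138 and 147 CPM in parent and 494, 504 and 463 in ADRr libraries (1.78, adjusted p = 4.2e-18). These pyrimidine phosphorylases were thus several times higher in every ADRr library. UCK2, uridine-cytidine kinase, had the largest decrease of this list at -0.36.

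Of 18 purine synthesis genes, 5 (27.8%) were higher and 8 (44.4%) lower (median -0.03), against 29.2% and 29.6% of all tested genes. GART, which carries 3 steps of purine ring synthesis, had 132, 144 and 132 CPM in parent and 281, 267 and 277 in ADRr libraries (log2 fold change 1.02, edgeR adjusted p = 1.3e-13). IMPDH2, which commits IMP to guanine nucleotides, had 309, 332 and 313 CPM in parent and 134, 143 and 137 in ADRr libraries (-1.20, adjusted p = 4.4e-15). The 50 tested genes nearest to GART on its chromosome had a median log2 fold change of 0.66, and those nearest to IMPDH2 a median of -0.69. Of 15 tested genes of breakdown and pool cleaning, 5 were higher and 7 lower (median -0.24), with extremes at NT5M, a mitochondrial deoxynucleotidase with only 9 to 60 counts per library, at 1.61, and DCTPP1, which hydrolyses dCTP, at -1.02. Of 7 nucleoside transport genes, 4 were higher and 1 lower (median 0.57), and the largest increase, of the concentrative transporter SLC28A3 at 1.90, rested on 2, 5 and 8 counts in parent and 15, 20 and 25 in ADRr libraries. The only decrease in that list was that of SLC29A1.

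**Figure D4:**
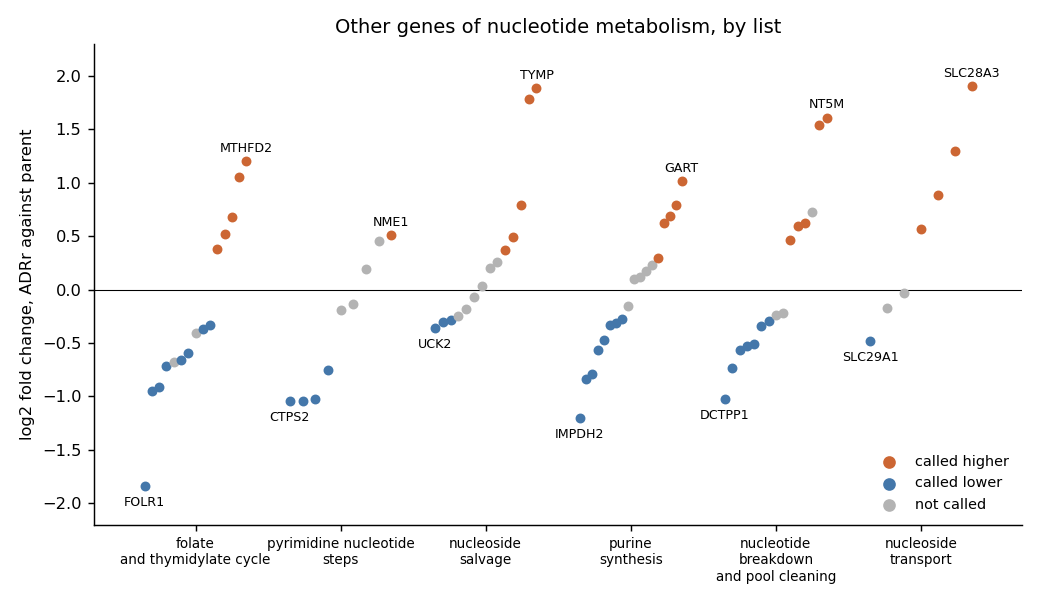
Log2 fold change, ADRr against parent (vertical axis), of 78 tested genes of nucleotide metabolism in 6 lists (horizontal axis), 1 point per gene, in orange where called higher, blue where called lower and grey where not called. The gene with the largest called increase and decrease is named in each list, from MTHFD2 at 1.2 and FOLR1 at -1.84 in the folate list to SLC28A3 at 1.90 and SLC29A1 at -0.48 in the transport list.

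Tumour lines gain and lose chromosome segments, so each enzyme gene was also set beside the 50 nearest tested genes on its chromosome. RRM2 and CAD, both on the short arm of chromosome 2, lay among genes that were mostly higher in ADRr cells. The median log2 fold change around RRM2 was 0.68, with 34 genes called higher and 3 lower, and RRM2 itself was 1.71 below that median. Around CAD the median was 0.57, with 32 higher and 2 lower, so CAD was 0.51 below its neighbourhood while level with its own parent value. RRM2B on chromosome 8 lay in a stretch with a median of -0.41, 5 genes higher and 26 lower, and differed from it by 0.02. DUT on chromosome 15 (median -0.33, 24 lower) and DCK on chromosome 4 (median -0.18, 23 lower) also lay among genes that were more often lower, and were 1.13 and 0.61 below those medians. The medians around RRM1, TYMS, TK1 and UMPS lay between 0.05 and 0.18. Copy number was not analysed here, and its part in these values was not tested.

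**Figure D5:**
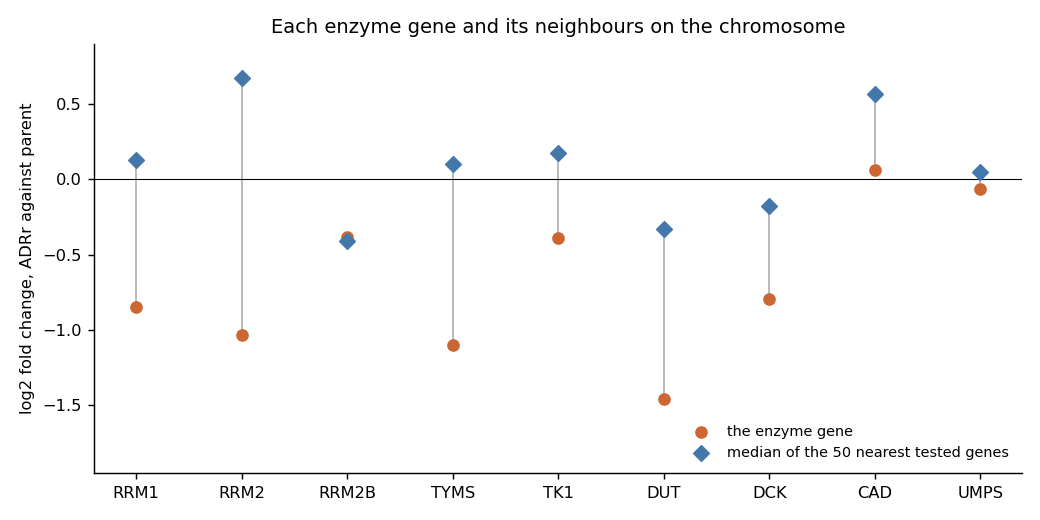
Log2 fold change, ADRr against parent (vertical axis), of each of the 9 genes (circle) and the median of the 50 tested genes nearest to it on its chromosome (diamond), joined by a line. The line is longest for RRM2, at 1.71 below its neighbours, and the symbols nearly coincide for RRM2B.

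Exons of some of these genes are shared with other genes in the annotation, and whether the authors counted by strand is not given in the sources used here. TYMS shares 39.1% of its exon bases with ENOSF1 on the opposite strand, and ENOSF1 had a log2 fold change of 0.18 (edgeR adjusted p = 0.025), under the fold threshold. TYMSOS, a divergent non-coding RNA that overlaps 7.41% of TYMS exon bases on the opposite strand, was lower with TYMS, with 60, 57 and 57 counts in parent and 11, 9 and 9 in ADRr libraries. RRM2 shares 20.2% of its exon bases with AC007240.1 on the same strand, which held only 6 to 16 counts per library. DUT shares 14.5% with the antisense gene AC023355.1 (4 to 27 counts) and DCK 6.17% with MOB1B on the same strand, which was not called (log2 fold change -0.09). These genes were named for their overlap after values were seen. Processed pseudogenes named for RRM2 and TYMS held 0 counts in every library, and those named for DUT held at most 7.

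The libraries of a group resembled each other more than those of the other group, with correlations of log2 CPM across genes of 0.989 to 0.992 in parent, 0.992 to 0.993 in ADRr and 0.935 to 0.937 between groups, and no pair of libraries of a group agreed within sampling noise (chi-square per degree of freedom 2.52 to 7.71). Total counts were 15983985 to 18272314 per library, and mitochondrial genes took 4.63 to 5.26% of them. All 6 markers of MDA-MB-231 listed for a check (VIM, CD44, EGFR, AXL, MSN and CAV1) were expressed. Their sum was 5102 to 5278 CPM in parent and 5345 to 5368 CPM in ADRr libraries. Single markers differed, with 2 called higher and 3 lower and log2 fold changes from -1.30 to 1.39. In contrast, 3 of 9 luminal and receptor genes (ESR1, PGR and FOXA1) were too low to be tested. Of the other 6, 1 was called higher (EPCAM) and 4 lower (ERBB2, CDH1, KRT8 and KRT18), with a median log2 fold change of -0.86, and the sum of the list was 993 to 1114 CPM in parent and 413 to 446 CPM in ADRr libraries. Of 10 leukocyte markers 1, CD14, passed the filter on low counts and 4 were at 0 in all libraries, with a sum of 4.99 to 7.68 CPM in parent and 5.07 to 6.23 CPM in ADRr libraries. Of 6 endothelial markers 2 passed, with a sum of 3.16 to 5.12 CPM in parent and 8.56 to 9.61 CPM in ADRr libraries.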

How the data were processed

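RNA of 3 parent and 3 ADRr MDA-MB-231 libraries had been sequenced as paired-end reads. Per the submitters' processing notes, fastp, HISAT2 2.0.5, featureCounts 1.5.0-p3 and DESeq2 1.20.0 were used with GRCh38. The deposited tables hold raw whole-number counts of reads per gene, and FPKM that the authors computed from counts and gene length. The gene table corresponds to GENCODE 29. The paper's methods name Novogene scripts for read cleaning, and strandedness is not given in the sources used here.

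The count test was edgeR 4.0.16 under R 4.3.3. Genes kept by filterByExpr (15242, with 43493 not tested) were normalized with TMM and compared by the quasi-likelihood test with no block, with Benjamini-Hochberg adjustment over all of them. Calls needed an adjusted p no greater than 0.05 and levels that differed 1.2-fold or more. CPM are counts scaled to the TMM-adjusted library total. The SE was taken as the absolute log2 fold change divided by the square root of F. The fitted log2 fold changes did not use the prior count of 2, which was added for the correlations between libraries. Ratios between genes were taken from FPKM within a library and compared with an exact two-sided permutation test. DESeq2 1.42.0 and limma-trend (limma 3.58.1) on log2(FPKM + 1) were alternatives, among 16 settings. The procedure was tested on simulated data.

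The genes and lists were chosen with earlier results of these data known. Named were the 9 enzymes, partner genes (SHMT1, DTYMK, TK2, DGUOK, DHODH, CTPS1, CTPS2, DCTD, CDA, SAMHD1 and SLC29A1) and, in each list, the extreme called gene on either side. Of the 7 ratios, 1 is not reported here. CMPK2 and GDA of the lists did not pass the filter. Depth was 15983985 to 18272314 counts per library, so that the enzymes had 550 to 4574 counts each. Counting error was not separated from the spread between libraries for single enzymes. Replicate numbers did not pair the libraries.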

Additional observations from a re-analysis of the deposited data

How the results depend on the processing

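The 9 enzymes kept their direction and their side of the threshold under all 14 alternatives to the tool, scaling, filter, block or libraries. The log2 fold change ranged from -1.52 to -1.39 for DUT, -1.15 to -1.05 for TYMS, -1.12 to -0.96 for RRM2, -0.89 to -0.82 for RRM1, -0.85 to -0.73 for DCK, -0.47 to -0.33 for TK1, -0.43 to -0.32 for RRM2B, 0.04 to 0.09 for CAD (adjusted p from 0.12 to 0.49) and -0.09 to -0.04 for UMPS (adjusted p from 0.35 to 0.68). A threshold of 1.2 on the log2 scale, another reading of the study's methods, left 1 enzyme lower (DUT), 7 and 2 genes of the nucleotide metabolism lists higher and lower, and 1114 and 972 of all genes higher and lower. Of the medians of neighbouring genes, that of RRM1 was -0.00045, of TYMS 0.27, of TK1 0.07 and of DCK -0.36 over 100 genes, and that of RRM2 was 0.80 and of UMPS -0.06 over 25 genes. The cause was not tested.

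Same-numbered libraries of the groups did not deviate together (correlations of 0.0074, -0.021 and -0.046), so the numbers were not used as pairs. With a replicate block, 7 enzymes were lower and 0 higher, 26 and 31 genes of the lists and 4406 and 4464 of all genes were higher and lower. With 3 libraries a group, permutation tests could not reach 0.05.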
